A study of Mus musculus with 8 samples.

Results

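Transcript levels of STAT transcription factors and of their SOCS inhibitors were described in myeloid cells sorted from mouse spleen. The set holds 9 genes, matched by symbol among the 23084 genes of the authors' deposited table. These are 6 STAT genes (Stat2, Stat3, Stat4, Stat5a, Stat5b and Stat6) and 3 genes of the SOCS family (Socs1, Socs3 and Cish). All 9 were found, each with a mean signal above 10. CD11b+Ly6C+ (monocytic) and CD11b+Ly6G+ (granulocytic) cells were taken from C57BL/6 mice aged 6 to 8 weeks. The donors were wt mice or LmnaMyeKO mice, in which Cre expressed from the Lyz2 locus (LysM-Cre) deletes floxed Lmna, the gene of lamin A/C. LysM-Cre is active in monocytes, macrophages and granulocytes, so lymphoid and erythroid cells in a sort keep Lmna. The 8 samples form 4 groups of 2, which are wt CD11b+Ly6C+, LmnaMyeKO CD11b+Ly6C+, wt CD11b+Ly6G+ and LmnaMyeKO CD11b+Ly6G+ cells. The subset was taken from the sample titles, since the cell-marker label gives CD11b+Ly6C+ for all 8 samples.

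Cytokines that bind receptors without kinase activity of their own signal through Janus kinases (JAKs), which phosphorylate the receptor and then the STAT proteins docked on it. Phosphorylated STATs pair, enter the nucleus and bind DNA, and among the genes they induce are those of SOCS proteins, which bind the receptor or the JAK and close a negative feedback loop. In myeloid cells this pathway carries the signals of colony-stimulating factors, interferons and interleukins.

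The value analysed was the authors' mean normalized signal of each gene, which is the read count divided by the library's size factor and averaged over libraries. Single-sample values were not used here, so neither the genotypes nor the subsets were compared. The lowest means show how many libraries were averaged, since 1 read in 1 library adds a fixed step to the mean. Sums of 8 steps gave all 1223 means below 0.4 to within 1e-06, while such sums cover 0.067% of that range. The mean thus spans as many libraries as there are samples, both genotypes and both subsets included. The size factors behind the steps run from 0.7963 to 1.913, and the second highest is 1.048. The steps do not tell which library is which sample. The summed mean signal was 25236500. Each mean is printed with no SD or n, and the counting error given beside it is an upper bound that leaves out the spread between samples. That bound also leaves out any error from dividing reads that fit several genes. To set genes side by side, the mean signal was divided by the length of the union of annotated exons and is referred to as the level per kb. Over the 22980 genes with a length, the median level was 18.9 per kb and the 90th percentile was 485 per kb.

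Markers of the granulocytic subset stood high in the mean, and those of the monocytic subset did so in part. Itgam, which encodes CD11b, had a level of 10760 per kb. The granulocyte gene Ly6g had a level of 8337 per kb. All 7 neutrophil markers and 3 of 5 monocyte markers were at or above the 90th percentile, and the neutrophil list summed to 115.0 times the level of the monocyte list. The monocyte list includes Itgam, which marks both subsets; without it, 2 of 4 monocyte markers were at or above the 90th percentile and the ratio of the sums was 244. S100a9, a calcium-binding protein of neutrophils, was the highest of the neutrophil list at 1389950 per kb and, with S100a8 at 595562 per kb, made up most of its sum. The median level was 96251 per kb for the neutrophil list and 3838 per kb for the monocyte list. Markers of other cells were in the same mean. The 4 B cell markers summed to a level of 9400 per kb with Cd79a highest at 4065 per kb, and the 4 macrophage markers summed to 24625 per kb with C1qb highest at 9704 per kb. The 4 erythroid markers summed to 17077 per kb with Hbb-bs highest at 11172 per kb. The 4 T and NK cell markers summed to 746 per kb with Nkg7 highest at 519 per kb, and the 4 promyelocyte markers summed to 4497 per kb with Elane highest at 1720 per kb. The part of these cells in the STAT and SOCS levels was not tested. No gene of the table is listed at 0, so presence in it alone says little. In such bulk samples, fewer cells of a type and less RNA per cell cannot be told apart. Lmna itself had a level of 13.6 per kb, which as a mean over wt and LmnaMyeKO libraries is no check of the deletion.

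Stat6 had the highest level of the 9 genes. It carries the signals of IL-4 and IL-13 and lies at chr10:127642986-127660957 (GRCm38/mm10, plus strand). Its mean signal was 9098, with a counting SE of at most 37.8, and its level was 2067 per kb, at percentile 97.7 of all genes. Stat6 was also the highest over the longest transcripts, and it was the third over the longest coding sequences, behind Socs3 and Stat3.

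Stat5b and Stat3, which act downstream of colony-stimulating factors and of IL-6 and IL-10, were next among the STAT genes, at close levels over union exons. Stat5b had a mean signal of 5805 (counting SE at most 30.2) and a level of 1048 per kb, at percentile 95.3. Stat3, which transmits the G-CSF signal in granulocyte production, had the higher mean signal, 9268 (counting SE at most 38.1), but a level of 973 per kb, at percentile 94.9. The union of Stat3 exons is 9527 bp long against 5539 bp for Stat5b, and the order of this pair turned with the length used. The Stat5b level was 1.08 times the Stat3 level over union exons, 0.726 times over the longest transcripts and 0.614 times over the longest coding sequences.

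Stat2 and Stat4 were the following STAT genes over union exons. Stat2, the partner of IRF9 in the complex that answers type I interferon, had a mean signal of 2434 (counting SE at most 19.5) and a level of 411 per kb, at percentile 88.3. Stat4, which carries the IL-12 signal and is best known from T and NK cells, had a mean signal of 1335 (counting SE at most 14.5) and a level of 345 per kb, at percentile 86.4. The ratio of Stat2 to Stat4 was between 1.19 and 1.48 over the 3 length scales. The ratio of Stat4 to Stat5a, the next gene in the order, was 2.74 over union exons, 1.97 over the longest transcripts and 1.58 over the longest coding sequences. The 4 T and NK markers had a median level of 101 per kb, below that of Stat4, while Nkg7 among them was above it at 519 per kb. The source of Stat4 reads was not tested.

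Stat5a was the lowest of the 6 STAT genes. It encodes the close relative of STAT5B that is best known for prolactin signalling in the mammary gland, and both proteins answer GM-CSF and IL-3 in myeloid cells. Its mean signal was 897.6 (counting SE at most 11.9) and its level was 126 per kb, at percentile 73.0. Stat5b exceeded Stat5a 8.33-fold in level over union exons, 4.91-fold over the longest transcripts and 6.56-fold over the longest coding sequences. The direction of this difference was thus the same on the 3 scales, while its size was not.

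Of the summed level of the 6 STAT genes over union exons, Stat6 held 41.6%. Stat5b held 21.1% and Stat3 held 19.6%. Stat2 held 8.26%, Stat4 6.94% and Stat5a 2.53%. Which gene led turned with the scale, since over the longest coding sequences Stat3 held 33.6% and Stat6 30.3%. Over union exons, the 3 highest STAT genes were at or above the 90th percentile of all genes, and all 6 were above the median gene.

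The SOCS genes were spread more widely than the STAT genes, with a ratio of the highest to the lowest level of 63.3 against 16.4 over union exons. Over the longest coding sequences these ratios were 32.5 (Socs3 to Cish) and 10.7 (Stat3 to Stat5a). Socs3, which binds the receptor chains of IL-6 and G-CSF together with their JAK, had a mean signal of 5419 (counting SE at most 29.2) and a level of 1874 per kb, at percentile 97.4. Socs1, the main brake on interferon signalling, had a mean signal of 171 (counting SE at most 5.18) and a level of 58.8 per kb, at percentile 62.8. Cish, the inhibitor induced by STAT5 that competes for receptor docking sites, had a mean signal of 190.2 (counting SE at most 5.46) and a level of 29.6 per kb, at percentile 54.7. Socs1 and Cish were above the median of all genes but below that of smaller gene sets, at percentiles 40.2 and 27.2 among genes with a mean signal of at least 10 and 49.6 and 40.0 among protein-coding genes. Socs3 held 95.5% of the summed level of these 3 genes, against 3.0% for Socs1 and 1.51% for Cish. The Socs3 level was 31.9 times that of Socs1 over union exons, 36.1 times over the longest transcripts and 29.8 times over the longest coding sequences. Cish had the higher mean signal per gene but the lower level per kb, since its union of exons is 6419 bp long against 2908 bp for Socs1.

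**Figure D1:**
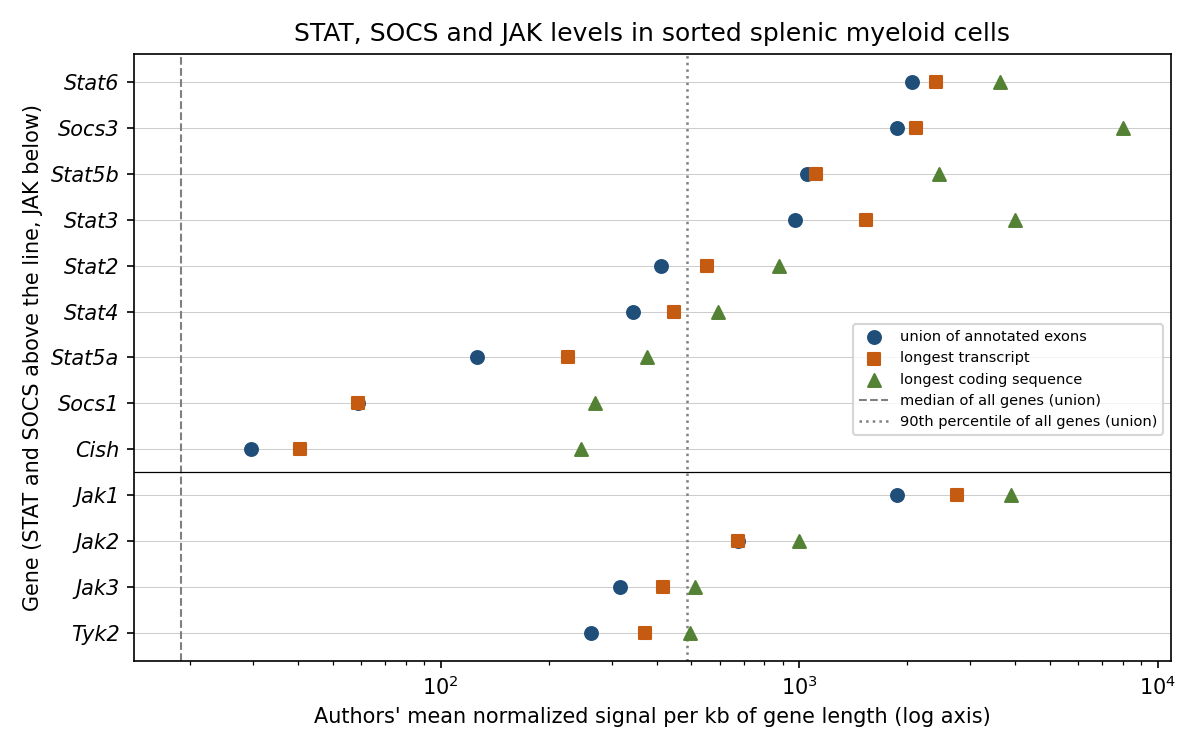
Authors' mean normalized signal per kb (log axis) of the 9 STAT and SOCS genes, ordered by level over union exons, and of 4 JAK genes. Circles, squares and triangles are the same mean divided by the union of exons, the longest transcript and the longest coding sequence, and no error bars are drawn because the spread between samples is not in the mean; Socs3 moves from 1874 to 8028 per kb between the first and the last scale.

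The order of the 9 levels was Stat6, Socs3, Stat5b, Stat3, Stat2, Stat4, Stat5a, Socs1 and Cish. All 8 gaps between neighbours exceeded their counting error at 95%, but whether they exceed the spread between samples was not tested. In per kb, the smallest gap was that between Socs1 and Cish, 29.2 per kb against a counting limit of 3.87 per kb. Relative to its counting limit, the gap between Stat5b and Stat3 was the smallest, 75.25 per kb against 13.3 per kb. Of the 8 neighbour orders, that of Stat6 over Socs3 and that of Stat5b over Stat3 changed with the length scale. Stat6 was 1.1 times Socs3 over union exons and 0.451 times over the longest coding sequences.

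The genes that act directly above and beside the STAT and SOCS proteins were set on the same scale. All 4 JAK genes were above the median gene, and the summed STAT level was 1.59 times the summed JAK level. Jak1, the kinase shared by interferon and IL-6 family receptors, had a level of 1869 per kb, which was 59.9% of the JAK sum. Jak2, used by the receptors of GM-CSF and IL-3, had a level of 673 per kb. Csf3r, the receptor for G-CSF that signals through STAT3 and is bound by SOCS3, had the highest level of the 25 receptor genes, 21306 per kb. Osmr was the single receptor gene with a mean signal under 10, at 1.91, and its level was 0.157 per kb. Of the 25 receptor genes, 19 were above the median gene and 13 were at or above the 90th percentile.

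Irf9, the DNA-binding partner of STAT2, had a level of 737 per kb, the highest of 4 STAT partner genes, all above the median gene. Among 11 inhibitors outside the SOCS family, all above the median gene, the phosphatase gene Ptpn6 (SHP-1) was highest at 6300 per kb, above Socs3 at 1874 per kb. All 13 genes known as STAT targets were above the median gene, and 9 of them were at or above the 90th percentile. Mcl1, a survival gene of granulocytes, led them at 9906 per kb. The 6 further genes of the STAT and SOCS families that were listed had a median level of 70.0 per kb, and 5 of them were above the median gene. The median gene here is that of all genes, at 18.9 per kb. Among genes with a mean signal of at least 10, the median was 93.0 per kb. The lowest JAK, partner, non-SOCS inhibitor and target levels were 262, 189, 121 and 138 per kb, all above 93.0 per kb. The median of the 6 further family genes was below 93.0 per kb.

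Several of the 9 genes are neighbours on the genome. Stat5b (chr11:100780731-100850724, minus strand) and Stat5a (chr11:100859351-100885169, plus strand) are read away from each other, with 8626 bp between them. Stat3 (chr11:100885098-100939540, minus strand) runs towards Stat5a, and their 3′ ends share 72 bp of exon. Whether the authors' counting used strand is not given in the sources used here, and without strand the reads in that stretch cannot be told apart. Stat6 and Stat2 (chr10:128270559-128292849, plus strand) lie 609601 bp apart. Socs3 is at chr11:117966079-117970047 (minus strand), Stat4 at chr1:51987148-52107189 (plus strand), Socs1 at chr16:10782240-10785536 (minus strand) and Cish at chr9:107296026-107302784 (plus strand). Stat6 shares 40 bp of exon with Nab2 on the other strand, whose mean signal was 408.7. Stat4 shares 1033 bp with Gm28177 on the same strand, whose mean signal was 2.71. Cish shares 261 bp with Gm17040 on the other strand, whose mean signal was 0.403, and 479 bp with Gm17041, whose signal was not analysed here.

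**Figure D2:**
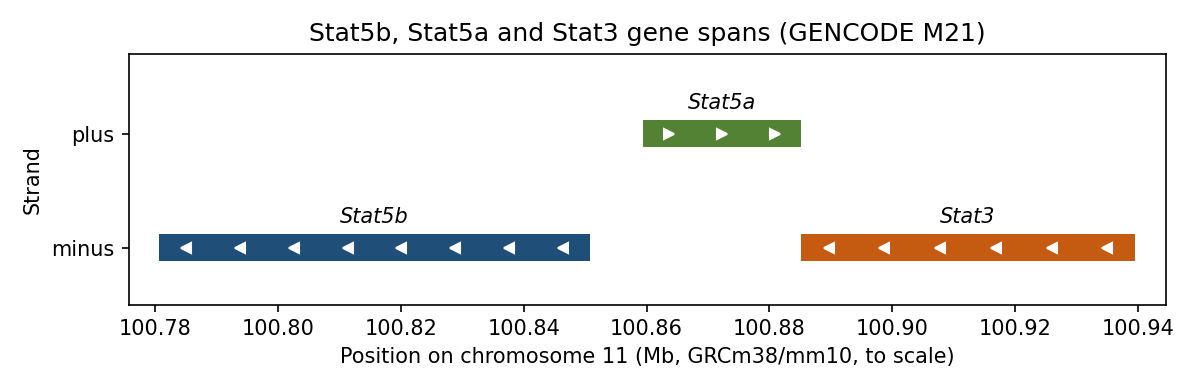
Gene spans of Stat5b, Stat5a and Stat3 on chromosome 11 in Mb (GRCm38/mm10, to scale), with the strand on the vertical axis and white arrowheads pointing in the direction of transcription. Stat5b and Stat5a are 8626 bp apart, and Stat5a and Stat3 meet end to end with 72 bp of shared exon.

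Stat5a and Stat5b are also close in sequence, which bears on how far their reads could be separated. Their longest coding sequences had 2080 identical bases in a global alignment, 88.2% of the shorter sequence. The other 14 pairs of STAT coding sequences were 54.8% to 61.1% identical. Stat5a and Stat5b transcripts shared 608 different words of 50 bases, which is 8.21% of the Stat5a words and 11% of the Stat5b words. No other pair within the STAT or the SOCS genes shared a word of that length. RSEM divides reads that fit several genes by an estimate, and how many reads of Stat5a and Stat5b this touched was not tested. The 3 SOCS coding sequences were 56.4% to 57.8% identical in pairs.

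Promoter windows of all 9 genes, 12 windows from 250 bases before to 50 bases after a RefSeq transcript start (GRCm38.p6), were searched for STAT motifs. Many STAT pairs bind gamma-activated sites (GAS), searched as TTCNNNGAA, which is its own reverse complement. The complex of STAT2 and IRF9 binds interferon-stimulated response elements (ISREs), whose core was searched on both strands as GAAA, any 2 bases and GAAA. Positions are counted from the first base of the transcript as 1, and bases before it have negative positions. Of 32851 mouse promoter windows of this length, 8.3% held a GAS match and 0.457% held 2 or more. The ISRE core was in 3.44% of the windows, and 2 or more were in 0.225%.

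The matches of Cish and Socs3, both known as STAT-induced genes, are printed because they show where the GAS letters fall against the transcript start. Cish had 2 GAS matches, TTCCTGGAA at positions 1 to 9 and TTCTTGGAA at positions 12 to 20, both in the first exon. Socs3 had 1 GAS match, TTCTTAGAA, at positions -154 to -146. Capitals mark the matched letters in the RefSeq stretches of Cish (chr9:107296629-107296683, plus strand) and Socs3 (chr11:117969482-117969550, minus strand), written 5′ to 3′ on the strand of the gene. The annotated spans of both genes begin upstream of these RefSeq starts, so for longer transcripts the windows lie within the gene.

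Cish: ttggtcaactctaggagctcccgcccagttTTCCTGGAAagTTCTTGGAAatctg

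Socs3: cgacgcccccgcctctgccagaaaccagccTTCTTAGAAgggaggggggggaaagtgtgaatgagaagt

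Socs1 and Stat2, both known as interferon-induced genes, are printed for the ISRE core. Socs1 had 2 matches that overlap, GAAAGAGAAA at positions -83 to -74 and GAAACCGAAA at positions -77 to -68. Stat2 had the core on the reverse strand, read as TTTCAGTTTC on the strand of the gene at positions -222 to -213. Stat2 also had TTCCCTAGAA at positions -210 to -201, a GAS form with 4 bases in the middle that was in 6.95% of all windows. Capitals mark these letters in Socs1 (chr16:10785574-10785649, minus strand) and Stat2 (chr10:128270248-128270327, plus strand), on the same terms.

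Socs1: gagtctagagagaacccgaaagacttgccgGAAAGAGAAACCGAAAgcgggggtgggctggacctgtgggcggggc

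Stat2: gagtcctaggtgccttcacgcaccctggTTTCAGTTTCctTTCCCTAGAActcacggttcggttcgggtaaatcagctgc

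Stat4 had an ISRE core match, GAAAGTGAAA, at positions -97 to -88 of its second window. The transcript start of that window, chr1:52008240, lies within the annotated gene span, which begins at chr1:51987148. In the windows of Stat3, Stat5a, Stat5b and Stat6, and in the first window of Stat4, none of these letter patterns was found. The matches describe letters in these windows only, and binding was not analysed here. Over all 27025 genes with a window, 9.55% had a GAS match in any of their windows and 3.99% had an ISRE core match.

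**Figure D3:**
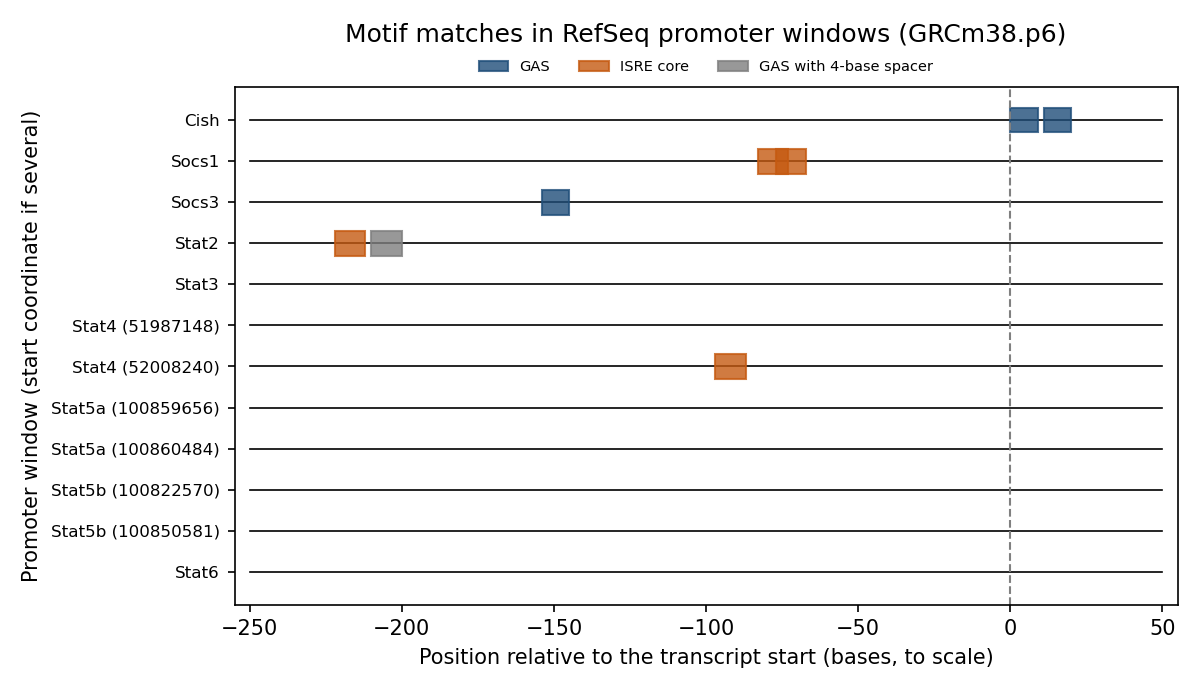
Positions of motif matches in the 12 promoter windows of the 9 genes, in bases from the RefSeq transcript start (dashed line, to scale), with coloured blocks for the GAS, the GAS with a 4-base spacer and the ISRE core. Cish has 2 GAS blocks just after the start, Socs3 has 1 upstream, and Socs1 has 2 overlapping ISRE blocks.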

How the data were processed

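RNA was sequenced from 8 samples in 4 groups of 2. Per the methods and the submitters' processing notes, the authors used Cutadapt 1.14 for trimming and STAR 2.5.2b in 2-pass mode for alignment to mm10, estimated gene counts with RSEM 1.3.0 and GENCODE M12, and normalized them with DESeq2 1.20.0. The deposited mean signal per gene is the authors' average of counts divided by size factors. The table's other 6 numeric columns hold the authors' own comparison of the genotypes within the monocytic subset (fold changes on 2 scales, a standard error, a test statistic and p-values before and after adjustment) and were not used. The planned edgeR test needs counts per sample and was not run. Strand use and low-value filters are not given in the sources used here. The methods give sequencing depth as a range over samples, and the table does not show the depth of any single sample.

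Lengths and positions came from GENCODE M21 (same build, newer than M12), which held 23004 of the 23084 identifiers. For 28 repeated symbols, the row with the highest signal was used. The counting SE bound is the square root of the mean signal times the largest step added by 1 read. Percentiles were taken over 22980 genes. Motifs were searched in RefSeq windows. Since protein sequences were not used here, the planned protein identity was replaced by a global alignment of the longest coding sequences. Python 3.11.15, pandas 2.3.3, numpy 2.4.6, Biopython 1.88 and matplotlib 3.10.9 were used. Members and gene lists were chosen with earlier results of these data known. All 9 members were named, and of each list the 4 genes with the highest level per kb and those with a mean signal under 10 could be named. Outside that rule, the overlapping genes Nab2, Gm28177, Gm17040 and Gm17041, Lmna and Ly6g were named after their values were seen. Alternatives were other lengths, gene sets for percentiles, a shorter promoter window, another spacer and another denominator for identity.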

Additional observations from a re-analysis of the deposited data

How the results depend on the processing

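No paired analysis was possible because the values are means over libraries and carry no replicate numbers. The counting error bounds leave out the spread between samples, so the differences between genes were not tested against it. Dividing by other lengths moved levels by construction, since the longest transcript and coding sequence are shorter than the union of exons or equal to it. Over the longest transcript, levels per kb were 2410 for Stat6, 2123 for Socs3, 1534 for Stat3, 1114 for Stat5b, 553 for Stat2, 448 for Stat4, 227 for Stat5a and 40.5 for Cish, while the level of Socs1 stayed at 58.8. Over the longest coding sequence, levels per kb were 8028 for Socs3, 4012 for Stat3, 3623 for Stat6, 2462 for Stat5b, 879 for Stat2, 595 for Stat4, 375 for Stat5a, 269 for Socs1 and 247 for Cish. Of the 36 pairs of the 9 genes, 31 kept their order by the mean signal per gene. With lengths chosen after seeing the data, 35 pairs kept it over the longest transcript and 33 over the longest coding sequence.

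Percentiles of the 9 genes were lower in both smaller gene sets, whose median levels were 93.0 per kb (mean signal of at least 10) and 60.4 per kb (protein-coding) against 18.9 per kb for all genes. Among genes with a mean signal of at least 10, they were 96.3 for Stat6, 95.9 for Socs3, 92.4 for Stat5b, 91.9 for Stat3, 81.2 for Stat2, 78.0 for Stat4, 56.6 for Stat5a, 40.2 for Socs1 and 27.2 for Cish. Among protein-coding genes, they were 96.8 for Stat6, 96.5 for Socs3, 93.5 for Stat5b, 93.0 for Stat3, 83.9 for Stat2, 81.2 for Stat4, 62.8 for Stat5a, 49.6 for Socs1 and 40.0 for Cish. Socs1 and Cish, above the median of all genes, were thus below it in both sets.

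Over the longest transcript, shares of the summed STAT level were 38.3% for Stat6, 24.4% for Stat3, 17.7% for Stat5b, 8.81% for Stat2, 7.12% for Stat4 and 3.61% for Stat5a. Stat3 came first on 2 scales chosen after seeing the data. Over the longest coding sequence, shares were 33.6% for Stat3, 30.3% for Stat6, 20.6% for Stat5b, 7.36% for Stat2, 4.98% for Stat4 and 3.14% for Stat5a. Of the summed mean signal per gene, undivided by length, they were 32.1% for Stat3, 31.5% for Stat6, 20.1% for Stat5b, 8.44% for Stat2, 4.63% for Stat4 and 3.11% for Stat5a. A GAS match was in 3.91% of windows cut to 100 bases before to 50 after the start, and the form with 4 middle bases was in 6.95% of full windows. Identity of the Stat5a and Stat5b coding sequences was 90.8% of the aligned length without gaps.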
